A study of Mus musculus with 24 samples.

Results

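The immediate early genes of the FOS, JUN and EGR families were examined in mouse embryonic fibroblasts (MEFs), connective tissue cells grown from mouse embryos. The 10 genes were taken by name from the deposited gene table, which lists 55487 genes, and the rule that picked them used no measured value. The genes were, however, chosen with earlier results of these data known. They are Fos, Fosb, Fosl1 and Fosl2 of the FOS family, Jun, Junb and Jund of the JUN family, and Egr1, Egr2 and Egr3 of the EGR family. The MEFs were wild-type (WT) or lacked AMPK (AMPK KO), the AMP-activated kinase that senses energy stress and whose catalytic subunits are encoded by Prkaa1 and Prkaa2; the study describes the knockout as one of both genes. Cells of each genotype received DMSO as vehicle, the direct AMPK activator MK-8722 or the MTOR kinase inhibitor torin1, which gave 6 groups of 4 libraries and 24 libraries in all. The treatment time of these libraries is not given in the sources used here. Each group held 1 library of each passage of its genotype, passages 12 to 15 for WT and 16 to 19 for AMPK KO. Genotype and passage range therefore cannot be told apart, and a difference between the genotypes is a difference between cells kept at separate passages. Nothing states that the libraries of a group came from separate embryos, so p-values measure the spread between these passages.

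FOS and JUN proteins are leucine zipper factors that pair with each other to form the transcription factor AP-1, and JUN proteins can also pair among themselves. EGR proteins are zinc finger factors that bind GC-rich sites. Many of these genes are switched on within minutes of serum, growth factors or stress without new protein synthesis, through ternary complex factors and SRF at CArG boxes and through CREB, ATF and AP-1 sites, and their messages are short-lived. Fosl1, Fosl2 and Jund encode members that are usually present for longer in growing fibroblasts, and the targets of AP-1 and EGR1 include cell cycle, matrix protease and growth factor genes.

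Fosb, Jun and Egr2 were each called in some comparison below, and Fos was called in none. Promoter sequences of these genes are shown so that their short motifs can be compared. They are RefSeq sequences of GRCm38.p6, written 5′ to 3′ on the strand of the gene. Those of Fos and Jun run up to the base before the RefSeq start. The Fosb sequence stops at the annotated first exon, short of the RefSeq start. For Egr2 only 30 bases around a CArG box are shown, which end upstream of the start at 67537869. Motif positions given below count from the RefSeq start. Of the 10 genes, 7 matched an entry of the promoter table, and Fosl1, Egr1 and Egr3 did not. Capitals mark TATAAA in Fos, GCGNGGGCG, a GC-rich site of the EGR type, in Fosb, TGACATCA, an AP-1 and CREB type site, in Jun and a CArG box in Egr2. The stretches are Fos at chr12:85473640-85473889 on the plus strand, Fosb at chr7:19310052-19310295 on the minus strand with the bases of the annotated first exon left out, Jun at chr4:95052223-95052472 on the minus strand and Egr2 at chr10:67537787-67537816 on the plus strand.
Fos: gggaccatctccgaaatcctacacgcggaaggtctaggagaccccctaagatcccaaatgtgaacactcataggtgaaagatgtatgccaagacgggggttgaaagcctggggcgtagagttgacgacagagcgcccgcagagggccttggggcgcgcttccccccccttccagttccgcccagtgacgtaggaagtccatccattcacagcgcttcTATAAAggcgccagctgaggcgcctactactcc
Fosb: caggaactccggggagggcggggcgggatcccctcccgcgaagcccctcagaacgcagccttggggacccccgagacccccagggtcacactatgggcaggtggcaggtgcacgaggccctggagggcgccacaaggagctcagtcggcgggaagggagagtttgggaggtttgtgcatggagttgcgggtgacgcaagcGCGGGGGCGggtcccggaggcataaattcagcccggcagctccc
Jun: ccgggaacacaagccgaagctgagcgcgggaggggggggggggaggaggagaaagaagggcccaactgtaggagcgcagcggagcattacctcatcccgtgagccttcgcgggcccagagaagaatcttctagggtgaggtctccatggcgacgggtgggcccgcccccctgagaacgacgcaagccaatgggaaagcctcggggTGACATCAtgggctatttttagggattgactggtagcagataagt
Egr2: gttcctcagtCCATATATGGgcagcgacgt

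Each motif was searched on both strands of the 250 bases before a start, for the members and for all 32851 promoter entries. The Jun sequence held TGACATCA at 45 to 38 bases before the start, a motif found in 2.93% of all promoters. GCGNGGGCG lay at 50 to 42 bases before the Fosb start and 79 to 71 bases before the Fosl2 start, and 4.7% of all promoters held it. In each of the 2 genes it overlapped GGGCGG, which 32.7% of promoters held. Of the 5 Egr2 entries, 4 held a CArG box, which was present in 1.47% of all promoters. Entries 3, 4 and 5 have overlapping windows that hold the same box, so they do not count as separate sites. For the Egr2 start at position 67537869, this shared box lay 72 to 63 bases upstream. TATAAA lay 33 to 28 bases before the Fos start and was in 12.4% of promoters. TGACGTCA, the full cAMP response element (1.55% of promoters), and TGANTCA, the AP-1 site (6.75%), matched none of the 7 genes within these windows. The Jund window ended at 70697738, upstream of the annotated gene start at 70698949, so the bases just before that start were not searched. The Fosl2 window, 32136222 to 32136471, lay inside the annotated gene, which starts at 32135801. CCAAT (33.8% of promoters) was present before Jun, Junb and 3 Egr2 starts, whose windows overlap and hold the same match. A match describes letters in the window and does not show that a factor bound there.

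By the GENCODE M21 annotation of GRCm38, all members are protein-coding. Fosl1 lies on chromosome 19 at 5447547 to 5455946, Fosl2 on chromosome 5 at 32135801 to 32157842 and Junb on chromosome 8 at 84974484 to 84978718. Jund lies on chromosome 8 at 70698949 to 70700616 and Egr3 on chromosome 14 at 70077203 to 70082614. The gene bodies of 4 members overlap a gene of the opposite strand, and the sources used here do not state whether counting used strand. Ccdc85b, which overlaps Fosl1, was at 50.1 to 87.3 CPM. Its log2 fold change with torin1 was 0.08 ± 0.063 in WT (SE, adjusted p = 0.3) and -0.24 ± 0.061 in AMPK KO (adjusted p = 0.0019), the latter in the direction of the Fosl1 difference given below. For Ccdc85b the difference between these effects was -0.32 ± 0.088 (adjusted p = 0.023) and that between genotypes in DMSO was 0.62 ± 0.062 (adjusted p = 4.8e-09). Its part in the Fosl1 values was not tested. Prdx2 overlaps the annotated Junb gene but not the single Junb transcript of the deposited tables. Junos within Jun and Gm11175 within Jund were at most at 1.61 and 2.03 CPM.

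The total estimated count per library was 26900240 to 34192685, and 15828 genes passed the filter on low counts. Prkaa1 and Prkaa2 transcripts were present in AMPK KO, at 65.6 to 82.5 and 2.34 to 5.71 CPM, so gene-level counts do not check the knockout label. The fibroblast genes Col1a1, Vim and Fn1 reached at least 319, 1470 and 1940 CPM in every library, whereas Pdgfra, Thy1 and Postn were at most at 6.49, 2.28 and 11.4 CPM. Summed over 9 fibroblast markers, WT libraries reached 11100 to 17100 CPM whereas AMPK KO libraries reached 4770 to 6830 CPM, and 8 of the 9 were called lower in AMPK KO in DMSO. The part of this shift in the genotype differences below was not tested. The macrophage marker Adgre1 had no count in any library, and the summed markers of epithelial, endothelial, blood and muscle cells stayed at or below 8.6 CPM each. The endothelial sum was 4.44 to 8.6 CPM with MK-8722 in WT against 0.878 to 1.28 CPM in WT DMSO. Over all libraries Kdr reached up to 8.41 CPM, whereas Pecam1, Cdh5 and Tek stayed at or below 0.451, 0.484 and 0.166 CPM. Of 3 tested endothelial markers, 1 was called higher with MK-8722 in WT, so the sum mostly follows a single gene. Its part in the MK-8722 differences was not tested. With torin1 in WT, the epithelial sum was 3.1 to 5.2 CPM against 1.4 to 2.41 in DMSO and the endothelial sum 1.97 to 3.87 against 0.878 to 1.28 CPM. In AMPK KO the fibroblast sum was 6270 to 6830 CPM with torin1 and 4800 to 5370 CPM in DMSO, and the part of these shifts in the torin1 differences was not tested either.

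All 10 members passed the filter. Calls required a fold change of at least 1.2 and, by edgeR's quasi-likelihood test with Benjamini-Hochberg adjustment over all tested genes, an adjusted p below 0.05. Levels are CPM, the counts scaled to library size with TMM factors, as mean ± SD over 4 libraries, and log2 fold changes are given ± SE. With MK-8722 in WT, Fosb rose and Egr1 and Egr3 fell, which makes 3 of 10 members against 15.7% of all tested genes (10.0% higher, 5.66% lower). In a fit with passage as a block 5 members were called, 1 higher and 4 lower, where 2907 of 15828 genes were called. With torin1 in WT, 5 members fell, namely Fosb, Fosl1, Jund, Egr1 and Egr3, against 47.6% of all genes called, 26.6% higher and 21.1% lower. In AMPK KO, MK-8722 gave 0 called members by edgeR and 0 by DESeq2, where 1.56% of genes were called (0.866% higher, 0.695% lower). At an unadjusted p under 0.05 there were 2, Fosl1 and Junb. The edgeR fit with passage as a block called 1 member, Fosl1 (0.37, adjusted p = 4.8e-05), where 729 of 15828 genes were called. Library size alone and no filter on low counts each called 1 member, Junb, as lower. Torin1 in AMPK KO gave 7 calls, Junb and Egr2 higher and Fosb, Fosl1, Jun, Jund and Egr3 lower, against a background of 43.5% (25.9% higher, 17.6% lower). Between genotypes in DMSO, Egr2 was higher and Fosl2, Jun, Egr1 and Egr3 were lower in AMPK KO. That is 5 of 10, close to the background of 56.9% (30.9% higher, 26.0% lower). Torin1 against MK-8722 in WT called 4 members lower, Fosb, Fosl1, Jund and Egr3, with 45.7% of genes called (24.5% higher, 21.2% lower). The comparisons with the same DMSO libraries share their controls.

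Median log2 fold changes of the members lay below those of all genes for both drugs in WT, at -0.26 against 0 with MK-8722 and at -0.48 against 0.04 with torin1. In AMPK KO the medians were 0.09 against 0 with MK-8722 and -0.19 against 0.06 with torin1. Between genotypes they were -0.34 and 0.02. In bulk RNA, fewer cells that express a gene and less RNA per cell cannot be told apart.

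**Figure D1:**
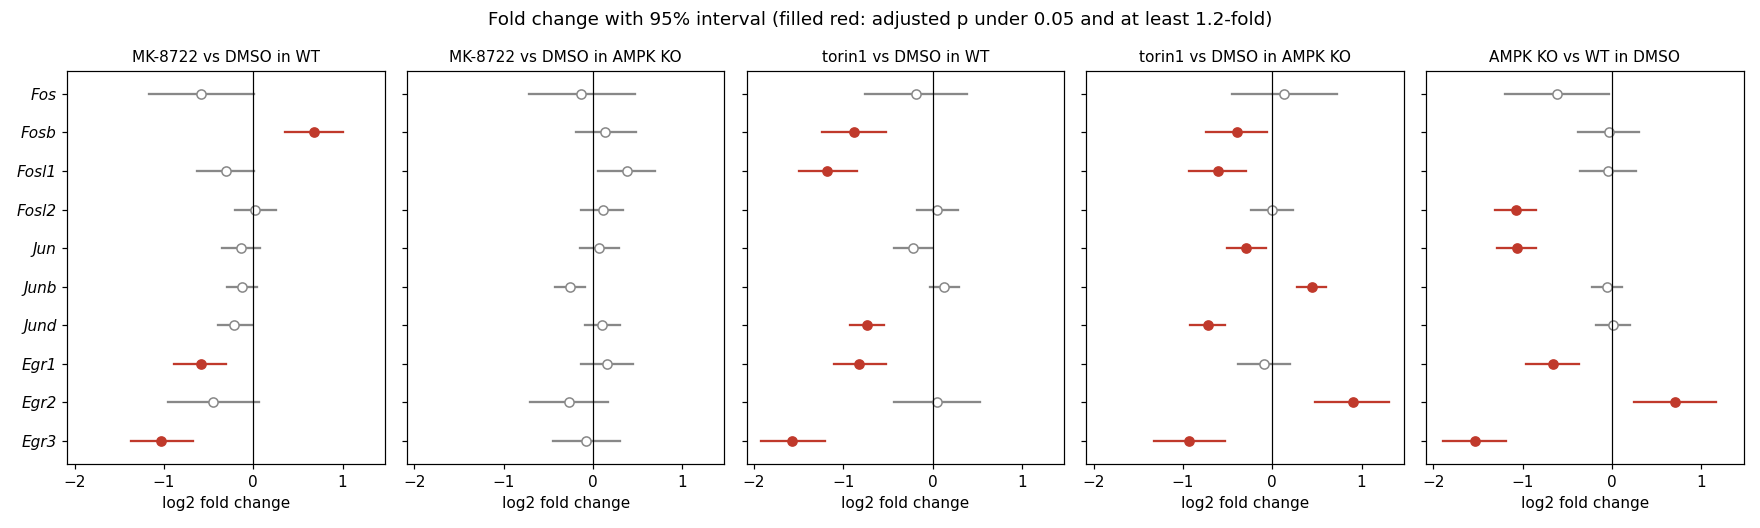
Log2 fold change of each member (horizontal axis) with its 95% interval in 5 comparisons of 4 libraries against 4, as filled red points where called and open grey points otherwise. The called points are 3, 0, 5, 7 and 5 from left to right, and the intervals of Fos are the widest in all 5 panels.

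Levels of different genes were compared as TPM, which accounts for transcript length. In WT DMSO, Jund was the most abundant member at 225 ± 14.7 TPM. Fosl1 (89.5 ± 12.9), Egr1 (69.9 ± 9.88), Jun (67.9 ± 7.15) and Junb (57.1 ± 5.23 TPM) followed, and each overlapped its neighbour in this order. Fosl2 stood below them at 30.2 ± 2.05 TPM with no overlap. The remaining 4 were at a few TPM or less, Fos at 3.87 ± 1.5, Egr3 at 2.75 ± 0.392, Fosb at 0.989 ± 0.154 and Egr2 at 0.725 ± 0.245 TPM, and among these Fos overlapped Egr3 and Fosb overlapped Egr2.

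Within families, the composition of the message pool differed between groups. Fosl1 made up 71.6 ± 4.61% of the summed FOS family TPM in WT DMSO and 51.3 ± 5.28% in WT torin1, while Fosl2 made up 24.4 ± 3.34% and 43.8 ± 3.38%. The Fosl2 TPM includes a short retained intron transcript, which held 33.9 ± 1.17% of it in WT DMSO and 39.5 ± 3.87% in WT torin1. The coding Fosl2 transcript was at 19.7 and 21.2 TPM in these groups. In AMPK KO, Fosl1 held 81.4 ± 2.54% in DMSO, 85.5 ± 0.871% in MK-8722 and 75.9 ± 1.9% in torin1, so that the Fosl2 share did not exceed 22.6% in any AMPK KO library. Fos itself stayed at or below 6.18% of the family in every library. In the JUN family, Jund held 64.3 ± 2.35% in WT DMSO and 72.2 ± 1.23% in AMPK KO DMSO, and with torin1 it held 52.7 ± 5.41% and 57.5 ± 2.33%. The share of Jun was 17.7 to 29% in WT libraries and 9.42 to 11.4% in AMPK KO libraries, with no overlap. Junb was at 16.3 ± 1.09% in WT DMSO and at 31.4 ± 2.53% in AMPK KO torin1. Egr1 accounted for 93 to 97.4% of the EGR family TPM in all 24 libraries. These shares are descriptions without a test.

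**Figure D2:**
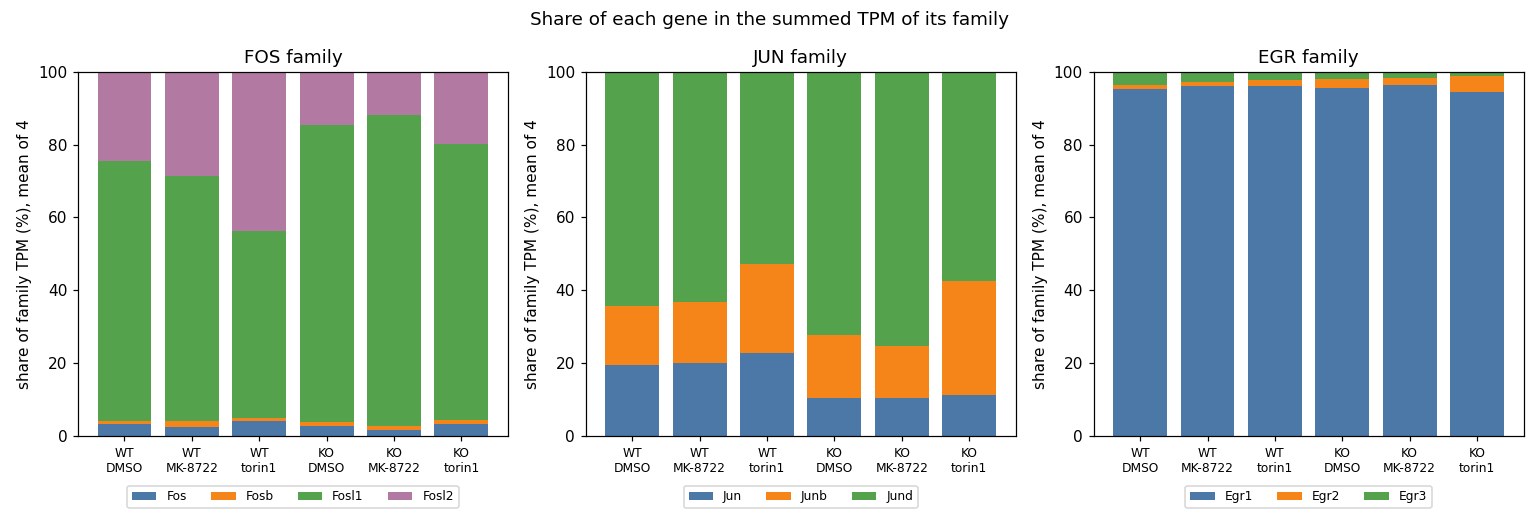
Stacked bars of the mean share (percent, 4 libraries per group) of each gene in the summed TPM of its family, for the 6 groups. Fosl1 takes 71.6% of the FOS family bar in WT DMSO and 51.3% in WT torin1, and Egr1 fills nearly all of the EGR bars.

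Fosl1 encodes FRA1, a FOS family member without the long activation domain of FOS. In WT at passages 12, 13, 14 and 15, its levels were 109, 81.5, 86.8 and 86.1 CPM in DMSO, 86.6, 62, 72.9 and 72.4 CPM with MK-8722 and 52.1, 35.8, 36 and 37.2 CPM with torin1. All torin1 libraries were below all others of this genotype. The fall with torin1 was -1.18 ± 0.16 (adjusted p = 7.8e-07), and that against MK-8722 was -0.87 ± 0.16 (adjusted p = 5.2e-05). With MK-8722 against DMSO the log2 fold change was -0.31 ± 0.15 (adjusted p = 0.15) and every passage had the lower value with drug. With passage as a block the same difference was called at -0.31 (adjusted p = 5.4e-05). In AMPK KO at passages 16 to 19, Fosl1 was at 70.9, 113, 82.4 and 86.3 CPM in DMSO, at 91, 152, 101 and 115 CPM with MK-8722 and at 51.8, 67.6, 54.8 and 56.7 CPM with torin1. Torin1 again gave the lowest values, at -0.61 ± 0.15 (adjusted p = 0.0017). MK-8722 gave the higher value at every passage, at 0.38 ± 0.15 (adjusted p = 0.2), and with passage as a block this was called at 0.37 (adjusted p = 4.8e-05).

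Fosb encodes the FOS family member known for its stable splice form, delta FOSB. Its WT levels were 2.51, 2.01, 2.04 and 2.31 CPM in DMSO, 3.33, 4.13, 3.33 and 3.5 CPM with MK-8722 and 1.28, 1.46, 1.06 and 1.01 CPM with torin1. The 3 groups did not overlap, and Fosb was the one member called in opposite directions by the 2 drugs. It rose with MK-8722 by 0.68 ± 0.16 (adjusted p = 0.0022) and fell with torin1 at -0.88 ± 0.17 (adjusted p = 0.00012). Between the drugs the difference was -1.56 ± 0.17 (adjusted p = 3.1e-08). These levels rest on 28 to 106 counts per library. In AMPK KO, Fosb was at 2.16 ± 0.23 CPM in DMSO, 2.39 ± 0.348 with MK-8722 and 1.64 ± 0.426 with torin1. The torin1 fall was -0.4 ± 0.17 (adjusted p = 0.043), and the passage 19 torin1 library lay within the DMSO range. The call was lost in 4 of 8 fits that left out 1 library (AMPK KO DMSO replicate 2 or 4, or torin1 replicate 1 or 3, adjusted p up to 0.15), with library size alone (0.075), without the filter (0.08) and in a fit of the compared libraries (0.063). The change with MK-8722 in AMPK KO was 0.14 ± 0.16 (adjusted p = 0.73), and the difference between genotypes in the MK-8722 effect was -0.54 ± 0.23 (adjusted p = 0.11). The 7 Fosb transcripts could not be ranked at this depth, since the share of the 4-exon coding transcript with the longest sequence ranged from 0 to 80.6% among WT torin1 libraries.

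Fosl2, which encodes FRA2, separated the genotypes and not the treatments. It was at 97.4 ± 6.45, 99 ± 16.1 and 101 ± 6.11 CPM in WT with DMSO, MK-8722 and torin1, and at 46.1 ± 5.05, 49.6 ± 9.31 and 46.1 ± 3.08 CPM in AMPK KO. The 12 WT libraries lay between 75.3 and 111 CPM and the 12 AMPK KO libraries between 39.3 and 62.2 CPM. In DMSO the difference was -1.08 ± 0.11 (adjusted p = 8.5e-09). The drug effects were all small, and the 95% intervals were -0.2 to 0.25 for MK-8722 and -0.18 to 0.28 for torin1 in WT, -0.13 to 0.34 and -0.24 to 0.23 in AMPK KO. The 4-exon coding transcript held 59.5 to 66% of the gene's TPM on average in each group, and a retained intron transcript held most of the rest.

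Fos, the founding member of the family, was low and variable. In WT at passages 12, 13, 14 and 15 it was at 2.54, 5.16, 4.11 and 3.31 CPM in DMSO, at 1.35, 3.58, 2.76 and 2.4 CPM with MK-8722 and at 1.95, 5.01, 2.98 and 3.26 CPM with torin1. In each of the 3 WT groups passage 12 was lowest and passage 13 highest. Its gene-wise coefficient of variation was 0.263, at percentile 93.9 of all tested genes. No comparison of Fos was called. The log2 fold change with MK-8722 in WT was -0.58 ± 0.28 (adjusted p = 0.14), lower at all 4 passages, and it was called with passage as a block at -0.6 (adjusted p = 0.0087). Between genotypes in DMSO it was -0.62 ± 0.28 (adjusted p = 0.053), and it was called by DESeq2 (adjusted p = 0.044), without the filter on low counts (0.023) and without the passage 12 libraries (-0.81, adjusted p = 0.0037).

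**Figure D3:**
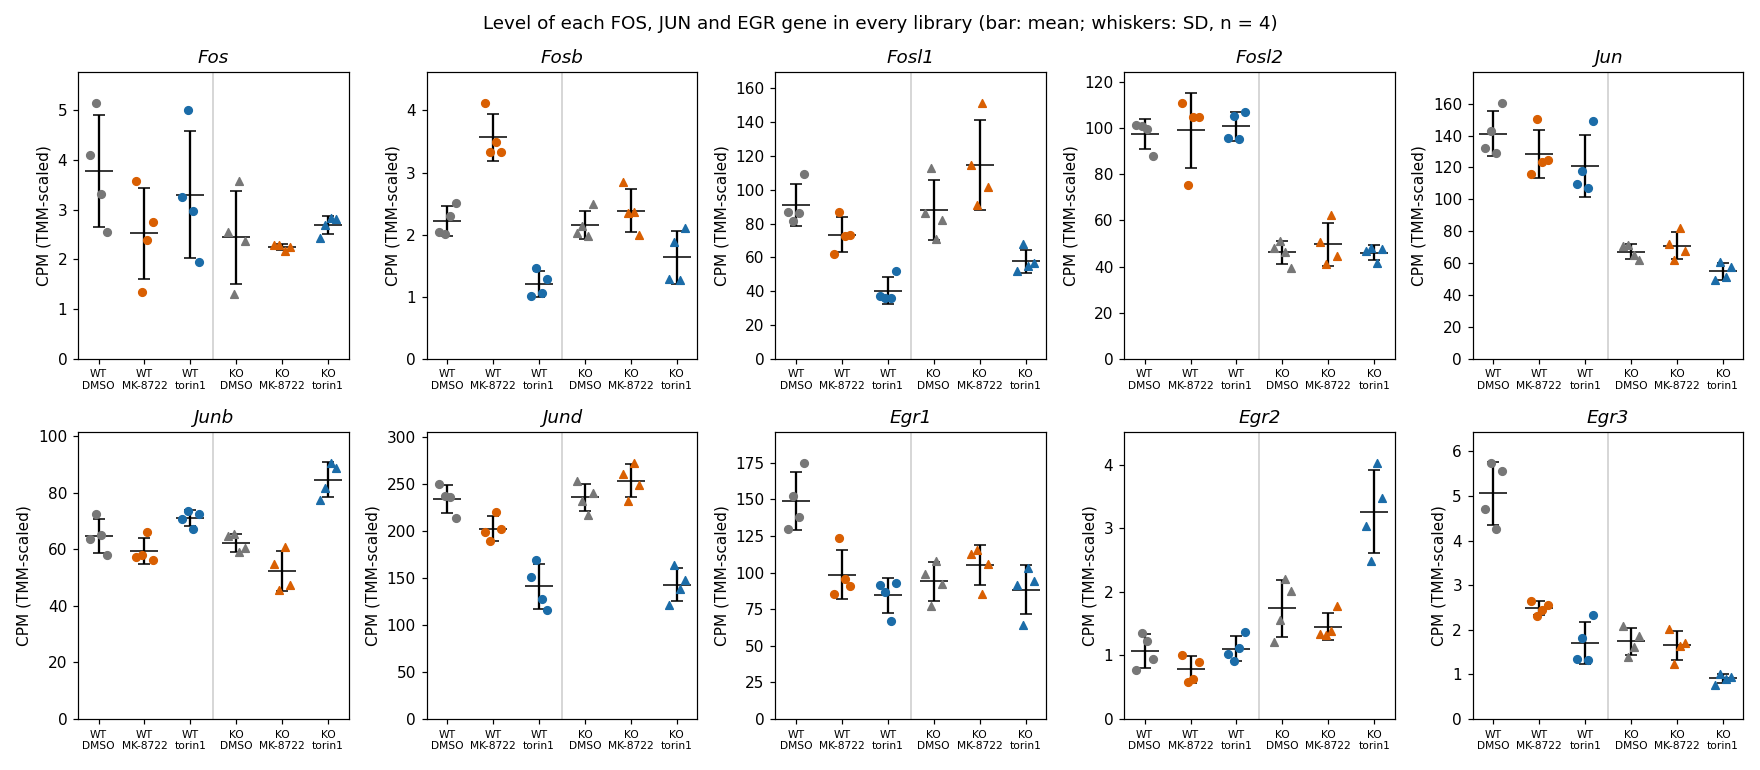
CPM of each member (vertical axis, from 0) in the 24 libraries, as circles for WT and triangles for AMPK KO, with bars for the mean and whiskers for the SD of 4 libraries. Fosl2 and Jun split by genotype, Jund and Fosl1 are lowest with torin1 in both genotypes, and the WT DMSO libraries of Egr3, 4.25 to 5.74 CPM, stand above all others.

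Jun encodes c-Jun, the partner through which FOS proteins bind DNA most strongly. It was at 161, 143, 132 and 129 CPM in WT DMSO at passages 12 to 15 and at 65.1, 71.2, 61.7 and 71 CPM in AMPK KO DMSO at passages 16 to 19. The groups were far apart, and the difference was -1.07 ± 0.1 (adjusted p = 2.7e-09). Over all treatments the WT libraries lay at 107 to 161 CPM and the AMPK KO libraries at 49.3 to 81.9 CPM. With torin1, Jun was lower than DMSO at each of the 8 passages. In AMPK KO this was called, at -0.29 ± 0.11 (adjusted p = 0.021) with means of 54.9 ± 5.36 and 67.2 ± 4.68 CPM, but the call was lost in 4 of 8 fits without 1 library (AMPK KO DMSO replicate 1 or 2, or torin1 replicate 1 or 3, adjusted p up to 0.063) and with library size alone, where the fold change was -0.23. In WT it was -0.22 ± 0.1 (adjusted p = 0.065), and -0.28 (adjusted p = 0.0082) without the passage 12 libraries. The difference between the genotypes in the torin1 effect was -0.07 (95% interval -0.37 to 0.23). With MK-8722 the log2 fold changes were -0.14 ± 0.1 in WT and 0.07 ± 0.1 in AMPK KO (adjusted p = 0.36 and 0.8).

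Jund encodes the JUN family member associated with quiescence. In WT it was at 213, 237, 249 and 236 CPM in DMSO and at 116, 170, 127 and 151 CPM with torin1. In AMPK KO it was at 217, 232, 240 and 252 CPM in DMSO and at 121, 164, 139 and 148 CPM with torin1. In both genotypes all torin1 libraries were below all DMSO libraries. The falls were -0.73 ± 0.094 in WT (adjusted p = 3.8e-07) and -0.72 ± 0.094 in AMPK KO (adjusted p = 5.7e-07), and the difference between them was 0.01 with a 95% interval of -0.27 to 0.28. The level in DMSO did not differ detectably between the genotypes (0.01, interval -0.18 to 0.2). With MK-8722, WT libraries were at 203 ± 12.9 CPM and AMPK KO libraries at 253 ± 17.5 CPM, lower than DMSO at all 4 WT passages and higher at all 4 AMPK KO passages. These changes were -0.21 ± 0.093 (adjusted p = 0.1) and 0.1 ± 0.093 (adjusted p = 0.64), and neither was called. Their difference of 0.31 ± 0.13 was not called either (adjusted p = 0.11), but it was with passage as a block (adjusted p = 0.014).

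Junb encodes a JUN protein that often opposes c-Jun in proliferation. It was at 58.9, 65.3, 60.4 and 64.7 CPM in AMPK KO DMSO and at 77.3, 81.5, 90.5 and 88.9 CPM with torin1. The groups did not overlap, and Junb rose by 0.44 ± 0.078 (adjusted p = 4.1e-05), opposite to Jun and Jund in the same libraries. In WT, Junb was at 64.8 ± 5.96 CPM in DMSO and 70.9 ± 2.87 with torin1, a change of 0.13 ± 0.079 (adjusted p = 0.16). The difference between the genotypes was 0.31 ± 0.11 (adjusted p = 0.081), and it was called with passage as a block (adjusted p = 0.02). Torin1 against MK-8722 in WT gave 0.26 ± 0.079 (adjusted p = 0.0072), which was just below the fold threshold. It was called with DESeq2 size factors (0.27), with library size alone (0.35), with at least 10 counts in every library (0.3), by DESeq2 (0.27), in a fit of the compared libraries (0.27), by adjusted p alone, without the passage 17 libraries (0.28) and in 4 of 8 fits without 1 library (WT MK-8722 replicate 2 or 3, or WT torin1 replicate 1 or 3). With MK-8722 in AMPK KO, Junb was at 45.6, 60.9, 47.3 and 54.9 CPM, below DMSO at each passage. That change was -0.26 ± 0.079 (adjusted p = 0.079), and it was called at -0.28 with library size alone (adjusted p = 0.047), without the filter (adjusted p = 0.05 after rounding) and without 1 library, AMPK KO MK-8722 replicate 3 (adjusted p = 0.023).

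Egr1 lies on chromosome 18 at 34859823 to 34864984 and encodes the most abundant EGR factor here. In WT at passages 12 to 15 it was at 175, 152, 130 and 138 CPM in DMSO, 123, 85.2, 90.8 and 95.4 CPM with MK-8722 and 92.7, 86.6, 66.7 and 91.7 CPM with torin1. Both drug groups lay below all DMSO libraries and overlapped each other. Egr1 fell with MK-8722 at -0.59 ± 0.14 (adjusted p = 0.0027) and with torin1 at -0.82 ± 0.14 (adjusted p = 2.6e-05), and the difference between the drugs was -0.23 ± 0.14 (adjusted p = 0.18). In AMPK KO it was at 108, 76.9, 92 and 99 CPM in DMSO, 116, 85.7, 106 and 113 CPM with MK-8722 and 91.3, 64.2, 103 and 94.3 CPM with torin1. These 3 groups overlapped, and the changes of 0.16 ± 0.14 with MK-8722 (adjusted p = 0.64) and -0.09 ± 0.14 with torin1 (adjusted p = 0.6) were not called. In DMSO, Egr1 was lower in AMPK KO than in WT at -0.66 ± 0.14 (adjusted p = 0.00022). The 3-exon coding transcript held 83.5 to 84.4% of the gene's TPM on average in each group.

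Egr3 showed the largest log2 fold changes against WT DMSO among the members, with either drug. Its levels were 5.56, 5.74, 4.7 and 4.25 CPM in DMSO, 2.3, 2.65, 2.56 and 2.44 CPM with MK-8722 and 2.33, 1.81, 1.33 and 1.34 CPM with torin1. All DMSO libraries were above all drug-treated ones, on 37 to 177 counts per library. Egr3 fell with MK-8722 at -1.03 ± 0.17 (adjusted p = 5.5e-05) and with torin1 at -1.57 ± 0.17 (adjusted p = 3.1e-08). Torin1 was lower than MK-8722 at -0.54 ± 0.18 (adjusted p = 0.012), but the groups overlapped and the call was lost in 2 of 8 fits without 1 library (WT torin1 replicate 1 or 3, adjusted p up to 0.07). In AMPK KO DMSO, Egr3 was at 1.62, 1.39, 1.86 and 2.09 CPM, below every WT DMSO library, at -1.54 ± 0.17 (adjusted p = 2.3e-08). With MK-8722 it was at 1.65 ± 0.322 CPM (-0.08 ± 0.18, adjusted p = 0.9). With torin1 it fell to 0.909 ± 0.106 CPM (-0.93 ± 0.19, adjusted p = 0.00023).

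Egr2, known for its role in myelination and hindbrain patterning, had the lowest mean TPM of the members in WT DMSO and rested on 16 to 43 counts per library in WT and 37 to 134 in AMPK KO. In WT it was at 1.07 ± 0.264, 0.781 ± 0.207 and 1.11 ± 0.196 CPM with DMSO, MK-8722 and torin1, and neither drug gave a call. Torin1 against MK-8722 gave 0.5 ± 0.24 (adjusted p = 0.08), which was called with library size alone (0.6, adjusted p = 0.04) and in 1 of 8 fits without 1 library (WT MK-8722 replicate 1, adjusted p = 0.046). In AMPK KO it was at 2.2, 1.55, 2.01 and 1.21 CPM in DMSO and at 3.04, 2.49, 4.03 and 3.48 CPM with torin1. The torin1 group lay above all DMSO libraries, and Egr2 rose by 0.9 ± 0.2 (adjusted p = 0.00051), opposite in sign to Egr3 in the same libraries. The difference between the genotypes in this effect was 0.85 ± 0.31 and was not called (adjusted p = 0.083). In DMSO it was higher in AMPK KO at 0.71 ± 0.22 (adjusted p = 0.0068), with overlapping groups. With MK-8722 in AMPK KO it was at 1.45 ± 0.213 CPM (-0.27 ± 0.21, adjusted p = 0.59).

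Whether the response to a drug depended on genotype was tested as an interaction, the log2 fold change in AMPK KO minus that in WT. For MK-8722, 3 members were called, all with positive differences, against 12.8% of all genes (5.12% higher, 7.66% lower). They were Fosl1 at 0.69 ± 0.22 (adjusted p = 0.032), Egr1 at 0.75 ± 0.2 (adjusted p = 0.011) and Egr3 at 0.95 ± 0.25 (adjusted p = 0.0097). The log2 fold changes of Egr1 were -0.59 in WT and 0.16 in AMPK KO and those of Egr3 were -1.03 and -0.08, and the AMPK KO values of Egr1 with MK-8722 were above DMSO at all 4 passages. The starting levels differed. In AMPK KO DMSO, Egr1 was at 94 ± 13.2 CPM and Egr3 at 1.74 ± 0.303 CPM. In WT with MK-8722 they were at 98.7 ± 16.9 and 2.49 ± 0.15 CPM. The part of the starting levels in the interactions was not tested. For Fosl1, all WT passages moved down, by log2 ratios of -0.39 to -0.25, and all AMPK KO passages up, by 0.3 to 0.42. The Fosl1 interaction was lost in 8 of 16 fits that left out 1 library (WT DMSO replicate 4, WT MK-8722 replicate 1, 3 or 4, AMPK KO DMSO replicate 1, 3 or 4, or AMPK KO MK-8722 replicate 3), with adjusted p up to 0.092, and with passage as a block its adjusted p was 5.3e-07. For torin1, 1 member was called, Egr1 at 0.73 ± 0.2 (adjusted p = 0.023), against 7.07% of all genes (4.15% higher, 2.92% lower). It was lost in 4 of 16 such fits (without WT torin1 replicate 3, AMPK KO DMSO replicate 4, or AMPK KO torin1 replicate 3 or 4), with adjusted p up to 0.088. With passage as a block 4 members were called for torin1, Egr1 and also Fosl1 (0.58, adjusted p = 1.8e-05), Junb (0.31, adjusted p = 0.02) and Egr3 (0.64, adjusted p = 0.046).

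**Figure D4:**
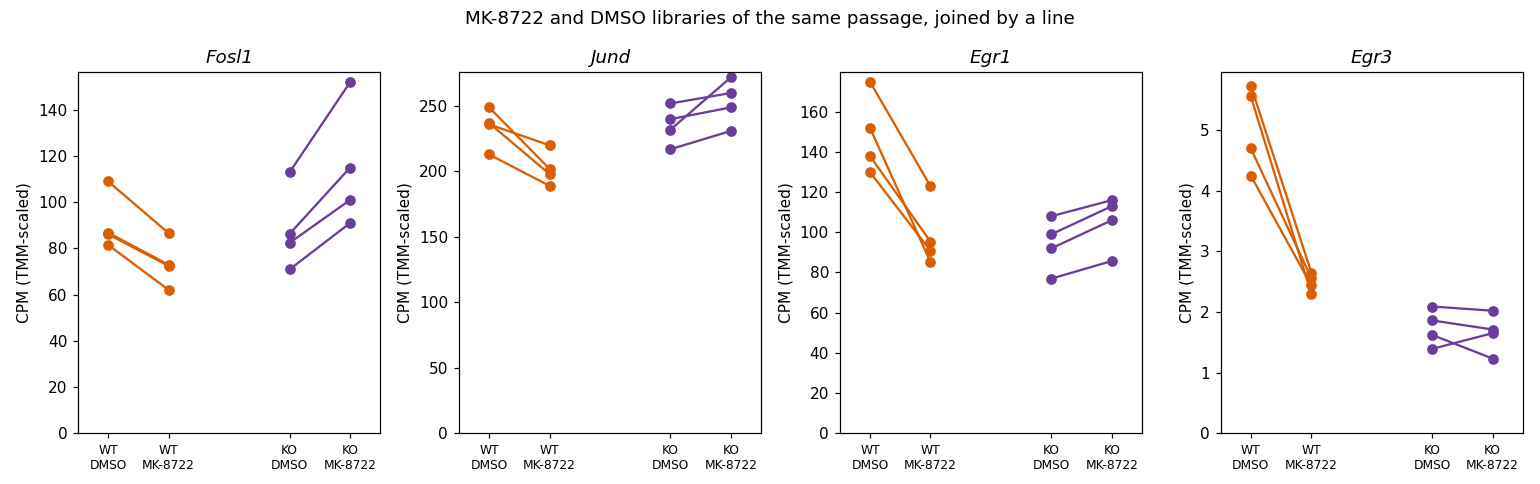
CPM of Fosl1, Jund, Egr1 and Egr3 (vertical axis, from 0) in the DMSO and MK-8722 libraries of each passage, joined by a line, for WT (orange) and AMPK KO (purple). The WT lines slope down in all 4 panels, the AMPK KO lines of Fosl1, Jund and Egr1 slope up at each of 4 passages, and of those of Egr3 1 slopes up and 3 slope down.

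Libraries of the same passage deviated together for several members. For Jun, the 3 libraries of a passage lay on the same side of their group means at 7 of 8 passages, for Fosl1 at 6 and for Egr1 at 5. Fosl1 and Jun were highest at passage 12 in WT, with mean deviations of 0.3 and 0.25 in log2 CPM, and at passage 17 in AMPK KO, with 0.35 and 0.15. Fos deviated by -0.66 at passage 12 and by 0.58 at passage 13. Egr1 was at 0.24 at passage 12 and at -0.33 at passage 17. Within groups over 24 libraries, deviations of Fosl1 and Jun had a Pearson correlation of 0.86 and those of Fos and Fosl1 one of -0.73. The libraries share 8 passages, so these are descriptions of few cultures. Without the passage 12 libraries the numbers of called members were 3 for MK-8722 and 6 for torin1 in WT, and without passage 17 they were 0 and 7 in AMPK KO.

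**Figure D5:**
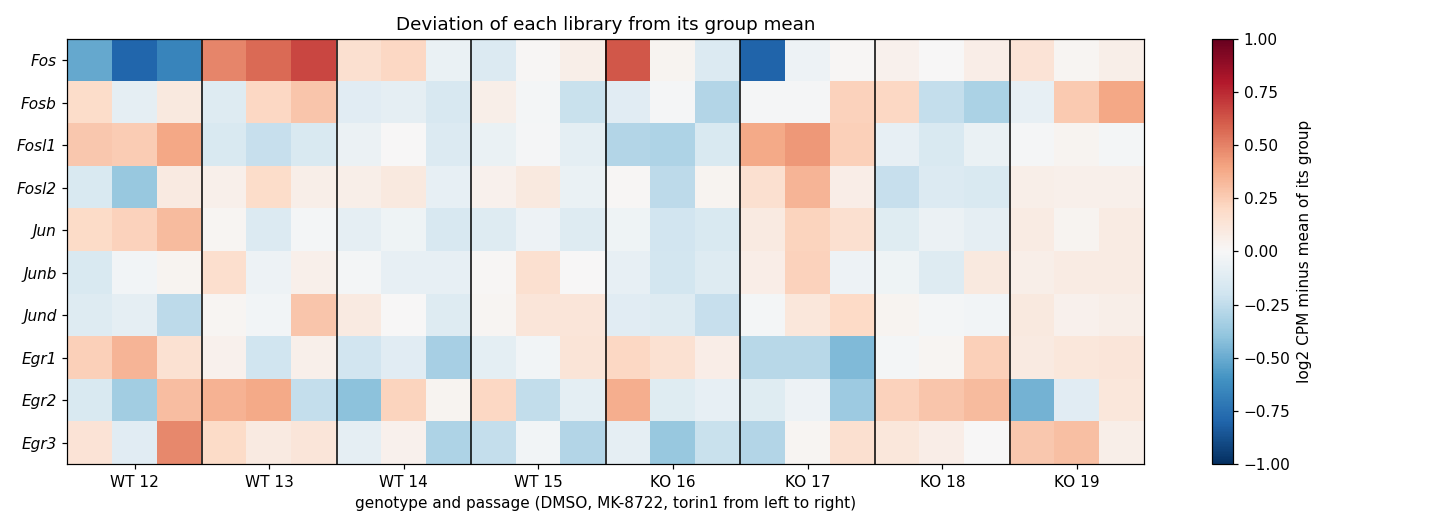
Deviation of log2 CPM from the mean of its group (colour) for each member (rows) in the 24 libraries, ordered by genotype and passage with DMSO, MK-8722 and torin1 from left to right. The 3 WT passage 12 libraries are low for Fos, on average by -0.66, and high for Fosl1 and Jun.

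Genes that act beside these factors were counted from lists, to be read against all tested genes, of which 10.0% were called higher and 5.66% lower with MK-8722 in WT, 26.6% and 21.1% with torin1 in WT, and 30.9% and 26.0% in AMPK KO against WT in DMSO. Of 10 tested AP-1 partners, 2 were higher and 1 lower with MK-8722 in WT, and 2 higher and 4 lower with torin1 in WT, with medians of 0.15 and -0.12. Atf3, a stress-induced partner, was at 16.2 ± 2.17 CPM in WT DMSO and 3.46 ± 0.409 CPM in WT torin1, a fall of -2.23 ± 0.15 (adjusted p = 1.1e-11). Its AMPK KO levels were 11.6 ± 2.27 and 2.83 ± 0.399 CPM (-2.04 ± 0.15, adjusted p = 1.3e-10). Jdp2, a repressor that binds AP-1 sites, fell with torin1 in WT at -2.11 ± 0.11 (adjusted p = 1e-13) and in AMPK KO at -1.69 ± 0.1 (adjusted p = 4.6e-12). These were the only 2 partners lower with torin1 in AMPK KO, where 4 were higher and the median was 0.11. Maff (0.55 ± 0.085) and Mafg (0.43 ± 0.074) were among the higher ones. Of all genes, 25.9% were higher and 17.6% lower in that comparison. The EGR co-repressors Nab1 and Nab2 both fell with torin1, by log2 fold changes of -0.67 ± 0.062 and -0.54 ± 0.066 in WT cells, and -0.54 ± 0.061 and -0.36 ± 0.068 in knockout cells. Nab2 was lower in AMPK KO in DMSO (-0.9 ± 0.067). Of 6 tested genes for SRF and its cofactors, 3 were lower with torin1 in WT and 3 lower in AMPK KO in DMSO, among them Srf (-0.58 ± 0.077 and -0.86 ± 0.077). Of 13 MAP kinase pathway genes, 8 were lower and 2 higher with torin1 in WT, with a median of -0.45. Rps6ka2 and Rps6ka4 fell at -1.25 ± 0.14 and -0.81 ± 0.094. The 2 that rose were Rps6ka5, by 0.85 ± 0.11, and Mapk3, which encodes ERK1, by 0.79 ± 0.074.

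Among 27 other immediate early genes, 8 were higher and 5 lower with MK-8722 in WT, with a median log2 fold change of -0.02, where 15.7% of all genes were called. Klf2 fell (-2.66 ± 0.2, adjusted p = 5.7e-10) and Ptgs2 rose (1.14 ± 0.17, adjusted p = 1.7e-05). With torin1 in WT, 7 were higher and 7 lower, near the background of 47.6%. Between genotypes in DMSO, 7 were higher and 16 lower in AMPK KO, with a median of -0.57 against 0.02 for all genes and a background of 56.9% called. In AMPK KO with MK-8722, 2 were called, Nr4a1 (0.51 ± 0.092) and Ier2 (0.35 ± 0.086), both higher, where 1.56% of all genes were called. Of 11 tested AP-1 target genes, 5 were higher and 4 lower with torin1 in WT, with a median of 0.35 against 0.04 and the same background of 47.6%. Ccnd1, the cyclin D1 gene, fell there at -1.39 ± 0.14 (adjusted p = 5.7e-09), and Mmp9, a matrix protease gene, rose from 0.378 ± 0.166 to 1.6 ± 0.821 CPM (2.08 ± 0.39, adjusted p = 7e-05). Between genotypes in DMSO, 4 AP-1 targets were higher and 4 lower, and Mmp9 was at 14.5 ± 1.86 CPM in AMPK KO.

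The genes with the most similar profile over the 24 libraries were ranked by the Pearson correlation of log2 CPM among 10097 named genes with a mean of at least 5 CPM. For Fosl2 they were Runx2 (0.983), Camk2g (0.98) and Kcnf1 (0.975), and for Jun they were Hmga1 (0.98), Carm1 and Trim27 (both 0.978). Fosl1 was closest to Tomm70a (0.963), Fosb to Atg2b and Gusb (both 0.919), and Jund to Atp5g1 (0.967) and Ndufb7 (0.964). Egr3 was closest to Atxn7l3b (0.951), Egr2 to Kalrn (0.905) and Junb to Gpatch8 (0.873). The lowest leading values were those of Fos, with Fam168a (0.825), and Egr1, with Trim2 (0.779), Sgf29 (0.773) and Ier2 (0.771). All points share libraries, genotypes and treatments, so the values describe likeness and carry no test.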

How the data were processed

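RNA of 24 libraries was analysed at the gene level. Per the study's methods and the labels, the authors processed the reads with the nf-core/rnaseq workflow, STAR and Salmon on GRCm38, with options for molecular identifiers. In the deposited gene table the values are estimated counts, not normalized, and the deposited transcript tables hold TPM, which the authors' workflow scaled for transcript length and depth, beside estimated counts. Whether counting used strand is not given in the sources used here. The study mentions a batch correction and names no batch. All libraries carry 1 batch label, and none was removed.

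Groups were taken from the labels. Estimated counts were rounded, low genes were removed with filterByExpr, TMM factors set the library sizes, and all 24 libraries entered a quasi-likelihood fit with 6 group means (edgeR 4.0.16, R 4.3.3). Tests were two-sided, and p-values were adjusted over 15828 genes, which held 99.96% of counts. Calls required both an adjusted p below 0.05 and at least a 1.2-fold difference. Log2 CPM used a prior count of 2. The common coefficient of variation was 0.079, and total counts limit the precision of genes with few counts. The procedure was tested on simulated data.

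The members and the gene lists were chosen with earlier results of these data known. From the lists, at most the 2 largest rises and the 2 largest falls among called genes with a mean of at least 1 CPM could be named per comparison with DMSO or between genotypes. For each member, the 3 genes of most similar profile were ranked, without gene models and unnamed genes. Marker lists covered fibroblast, epithelial, endothelial, blood and muscle cells.

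Alternatives were DESeq2 size factors, library size alone, no filter, at least 10 counts in every library, DESeq2 1.42.0, passage or replicate number as a block, the compared libraries alone, calls by adjusted p without a fold threshold, a 1.5-fold threshold, and leaving out each library. Leaving out the libraries of passage 12 or 17 was an alternative chosen after seeing the data. Deviations of same-numbered replicates had correlations of -0.196 to 0.25 in 60 pairs, so replicate numbers do not pair libraries. Libraries of the same passage had -0.011 to 0.367 in 24 pairs, above 0.1 in 15. Positions are from GENCODE M21 and promoters from RefSeq on GRCm38.p6.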

Additional observations from a re-analysis of the deposited data

Results flagged for a closer look

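Within groups of 4 libraries, 3 of 60 member levels held a library far from the others by Dixon's criterion for 4 values, where chance flags about 1 in 20 groups. Fosl1 reached 52.1 CPM in the WT torin1 library of passage 12, against 35.8 to 37.2 CPM in the other 3 libraries. Fosl2 was at 87.8 CPM in the WT DMSO library of the same passage, against at least 99.7 CPM. Egr2 was at 1.77 CPM in the AMPK KO MK-8722 library of passage 18, against 1.32 to 1.39 CPM.

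The effect of a drug differed between the genotypes by the interaction test for 3 members with MK-8722 and 1 with torin1. With MK-8722 the log2 differences, AMPK KO minus WT, were 0.69 for Fosl1, 0.75 for Egr1 and 0.95 for Egr3. With torin1 it was 0.73 for Egr1. The genotypes were kept at separate passages, so genotype and passage cannot be told apart in these differences.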

How the results depend on the processing

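Of 28 calls of members, 21 held in all alternatives run and none changed sign. Calls of MK-8722 in WT numbered 5 with passage as a block instead of 3. In AMPK KO with MK-8722, 1 member was called with library size alone, 1 without the filter and 1 with passage as a block, and 0 to 1 when single libraries were left out. At a fold change of at least 1.5, 2 members were called for torin1 against MK-8722 and 4 for torin1 in AMPK KO. For the torin1 interaction, 4 were called with passage as a block and 0 to 3 without single libraries. A fit with replicate number as a block gave 3, 5, 4, 0, 7, 5, 3 and 1 called members in the 8 comparisons. These are the same counts as without it, but replicate numbers do not pair libraries. The sign of Fosl2 with torin1 in AMPK KO turned in that fit, at 0. No fit with passage as a block could separate the genotypes. Differences that turned sign were small and not called. With library size alone, which shifted the all-gene median log2 fold change to 0.14 (torin1 in WT), 0.12 (torin1 in AMPK KO, and torin1 against MK-8722) and 0.15 (genotypes), Jun was at 0 for torin1 against MK-8722, Fosl2 at 0.06 for torin1 in AMPK KO, and Fosb, Fosl1 and Junb at 0.1, 0.09 and 0.08 between genotypes. The share of all calls that were higher moved from 55.8 to 67.5% for torin1 in WT, from 53.5 to 65.3% against MK-8722, from 55.5 to 45.1% for MK-8722 in AMPK KO, from 54.3 to 67.4% between genotypes and from 58.7 to 42.1% for the torin1 interaction (48.5% with DESeq2 size factors, 36% with at least 10 counts, 27% in the compared libraries). Without the filter, Fosl2 was at 0 for MK-8722 in WT and Jund at -0.04 between genotypes. With at least 10 counts, Fosb and Fosl1 were at 0.02 and 0.01 between genotypes. With passage as a block, Fosl2 was at 0 for torin1 in AMPK KO. Without passage 12, Fosl2 and Egr2 were at -0.03 and -0.13 for torin1 in WT, Fosl2 at -0.11 against MK-8722, Fosl1 and Jund at 0.02 and -0.07 between genotypes, and Fosl2 and Jund at 0.02 and -0.04 for the torin1 interaction. Without passage 17, Fos was at -0.13 for torin1 in AMPK KO and the Jund torin1 interaction at -0.15. That interaction was -0.02 with DESeq2 size factors, -0.03 with library size alone, -0.04 with at least 10 counts, -0.02 by DESeq2 and -0.06 in the compared libraries. Without single libraries, the ranges that crossed 0 were -0.03 to 0.13 for Fosl2 with MK-8722 in WT, -0.01 to 0.1 and -0.09 to 0.17 for Fosl2 and Egr2 with torin1 in WT, and -0.06 to 0.08 and -0.2 to 0.02 for Fosl2 and Jun against MK-8722. In AMPK KO they were -0.33 to 0.11, -0.02 to 0.19, -0.01 to 0.13 and -0.19 to 0.04 for Fos, Fosl2, Jun and Egr3 with MK-8722, and -0.08 to 0.33 and -0.12 to 0.05 for Fos and Fosl2 with torin1. Between genotypes they were -0.13 to 0.02, -0.2 to 0.04 and -0.05 to 0.04 for Fosb, Fosl1 and Jund. For the interactions they were -0.05 to 0.18 for Fosl2 with MK-8722, and -0.19 to 0.01, -0.2 to 0.04 and -0.14 to 0.11 for Fosl2, Jun and Jund with torin1. The cause of these shifts was not tested. Shares of the 4-exon coding Fosb transcript with the longest sequence moved from 46 to 57.4% and from 43.5 to 59.4% in WT MK-8722 and AMPK KO DMSO when estimated counts replaced TPM. Depth limits Fos, Fosb, Egr2 and Egr3 most.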
